A study of Musca domestica with 4 samples.

Results

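Myosin and actin, the proteins of the contractile filaments, had very abundant transcripts in the house fly RNA-Seq data, and 4 of the 6159 predicted genes were examined here: the myosin heavy chain genes ALHF_02955.g1774 and ALHF_02956.g1775, the paramyosin gene ALHF_02771.g1633 and the actin gene ALHF_04132.g2678. They were chosen by name, with their counts in the 4 libraries, their share of all transcripts, the ratios between them and their common order across the strains already known, so those values are given as a description without a test. RNA came from pools of 20 whole female Musca domestica at 3 days of age. There were 3 strains: ALHF, a poultry-farm strain from Alabama that was selected further with permethrin and resists several insecticides (2 libraries, from independent pools), and the insecticide-susceptible strains aabys, which carries recessive visible markers on its autosomes (1 library), and CS, a wild-type laboratory strain (1 library). The reference contigs were assembled from ALHF reads alone, and the reads of aabys and CS were placed on those ALHF sequences. A whole-fly pool mixes muscle with every other tissue, so fewer muscle cells and less of a transcript per muscle cell cannot be told apart in any value below.

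Striated muscle contracts when myosin heads on the thick filaments pull on the actin of the thin filaments. In insects the thick filament is built of myosin heavy chain dimers around a core of paramyosin, and the thin filament carries tropomyosin and troponin, which hold contraction off until calcium is released. Flight muscle fills much of the thorax of an adult fly. The study's annotation assigned both heavy chain genes to the single Mhc gene of Drosophila melanogaster and ALHF_02771.g1633 to its Prm gene, the gene of paramyosin. Coding lengths were 5811 nt for ALHF_02955.g1774, 5853 nt for ALHF_02956.g1775, 2640 nt for ALHF_02771.g1633 and 1131 nt for ALHF_04132.g2678, each a multiple of 3, or 1936, 1950, 879 and 376 residues after the stop codon is taken off. The 1131 nt gene was listed as actin, and the study's methods call it β-actin, a name used in vertebrates for a cytoplasmic actin. Whether the house fly gene is a muscle or a cytoplasmic actin was not tested.

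The actin gene was also the gene to which the study's qRT-PCR was scaled, and the primer pair that the study assigned to this contig is shown. Whether the pair also matches other actin contigs was not tested. The qRT-PCR itself was not analysed here. Both primers are written 5′ to 3′, with no part in capitals.
ALHF_04132.g2678 forward primer: atgaggctcagagcaaacgtggta
ALHF_04132.g2678 reverse primer: agtcatcttctcgcgattggcctt

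The deposited values were treated as estimated fragment counts. They summed to between 5523826 and 15085758 per library, and the smaller of the ALHF libraries (replicate 2) was the shallowest of all. Levels are given in 3 ways: as counts; as CPM, the count rescaled to a common library size after TMM scaling, which sets the libraries on a common footing from the bulk of the genes; and as TPM, the count divided by coding length and rescaled to the same sum in each library, which alone allows levels of genes of different length to be compared. TMM gave scaling factors of 0.816 and 0.856 to the ALHF libraries, against 1.12 in aabys and 1.27 in CS.

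The most abundant of the 4 genes in ALHF encoded the motor of the thick filament. ALHF_02955.g1774 had 541943 and 203257 counts in ALHF replicates 1 and 2, against 55319 in aabys and 14654 in CS. It held the highest count of all genes in both ALHF libraries, and ranked 22 in aabys and 120 in CS. Its level was 65664 and 42967 CPM in the ALHF libraries (54315 ± 16049, mean ± SD, n = 2), against 3262 CPM in aabys and 925 CPM in CS. Both ALHF values thus lay above aabys, and aabys above CS. The mean ALHF level was 16.6-fold that of aabys (log2 ratio of 4.06) and 58.7-fold that of CS (log2 ratio of 5.88), while the ALHF libraries differed from each other 1.53-fold.

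The other myosin heavy chain gene, ALHF_02956.g1775, stood at a lower level in ALHF. It had 217912 and 79113 counts in ALHF, against 27002 in aabys and 14957 in CS, or 26403 and 16724 CPM (21563 ± 6844, SD, n = 2) in ALHF, against 1592 CPM in aabys and 945 CPM in CS. The order of the libraries was that of its partner, with wider gaps between ALHF and the other strains than within ALHF. The ratios were 13.5-fold to aabys (log2 3.76) and 22.8-fold to CS (log2 4.51). The log2 ratio of aabys to CS, both single libraries, was 0.75 for this gene and 1.82 for ALHF_02955.g1774.

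Paramyosin, the rod protein of the thick filament core, differed least between the strains. ALHF_02771.g1633 had 66340 and 38583 counts in ALHF, against 24388 in aabys and 8809 in CS. After scaling the ALHF libraries were nearly equal, at 8038 and 8156 CPM (8097 ± 83.5, SD, n = 2), against 1438 CPM in aabys and 556 CPM in CS. This was the only one of the 4 genes for which ALHF replicate 1 was not above replicate 2 in CPM. The ALHF mean was 5.63-fold that of aabys (log2 2.49) and 14.6-fold that of CS (log2 3.86), and aabys stood 2.59-fold above CS.

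The actin gene had the widest range of these genes across the libraries. ALHF_04132.g2678 had 104486 and 37580 counts in ALHF, against 6153 in aabys and 1603 in CS. In CPM it stood at 12660 and 7944 (10302 ± 3335, SD, n = 2) in ALHF, against 363 in aabys and 101 in CS. Among all genes its count ranked 8 and 14 in the ALHF libraries, against 448 in aabys and 1791 in CS. The ALHF mean was 28.4-fold that of aabys (log2 4.83) and 102-fold that of CS (log2 6.67). Read per ALHF library, the ratio to CS was 125-fold for replicate 1 and 78.5-fold for replicate 2.

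Per length, actin and the leading heavy chain were level in ALHF. ALHF_02955.g1774 stood at 11651 and 7558 TPM in ALHF, against 754 in aabys and 249.9 in CS. ALHF_04132.g2678 stood at 11542 and 7179 TPM in ALHF, against 431 in aabys and 140 in CS. In TPM the 2 genes thus differed by less than the ALHF libraries did from each other, and ranked 4 and 5 in replicate 1 and 9 and 11 in replicate 2. ALHF_02956.g1775 had 4651 and 2921 TPM in ALHF, against 366 in aabys and 253 in CS. ALHF_02771.g1633 had 3139 and 3158 TPM in ALHF, against 732 in aabys and 331 in CS, so that it was the lowest of the 4 in ALHF replicate 1 and the highest of the 4 in CS. The order of the genes was therefore not the same in all libraries: in CS, paramyosin led, the 2 heavy chain genes were level and actin came last.

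**Figure D1:**
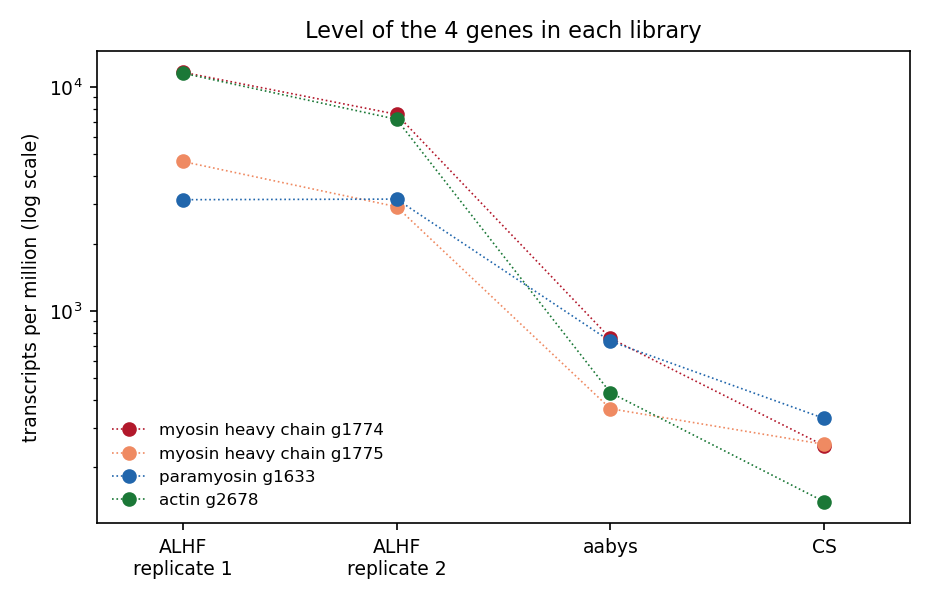
Level of the 4 genes in each library, in TPM on a log axis; each point is 1 library and the dotted lines only join points of 1 gene. All 4 genes stand highest in the ALHF libraries and lowest in CS, and the curves cross: actin ALHF_04132.g2678 is at 11542 and 7179 in ALHF and at 140 in CS, paramyosin ALHF_02771.g1633 at 3139 and 3158 in ALHF and at 331 in CS.

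Together the 4 genes held 9.20% of all counts in ALHF replicate 1 (95% Wilson interval 9.19 to 9.22) and 6.49% in replicate 2 (6.47 to 6.51), against 0.748% in aabys (0.744 to 0.752) and 0.322% in CS (0.319 to 0.325). These intervals cover counting error only, and fragments read without molecular identifiers are not independent molecules. As a share of transcripts, which takes coding length into account, the genes held 3.10% and 2.08% in ALHF, 0.228% in aabys and 0.0974% in CS. Their summed level in CPM was 14.2-fold that of aabys (log2 3.82) and 37.3-fold that of CS (log2 5.22), with a log2 difference of 0.57 between the ALHF libraries. Taking the library total alone as the scale lowered these log2 ratios to 3.39 and 4.61. In aabys and CS the highest count belonged instead to ALHF_01761.g987, annotated as the translation elongation factor Ef1alpha48D, with 101089 and 69870 counts in ALHF, against 345832 in aabys and 243163 in CS.

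The order of the libraries that these genes share was also found in many other genes. Both ALHF libraries stood above aabys and CS, and aabys above CS, for all 4 genes, as for 28.2% of the 6070 genes tested. For 3 of the 4, all but paramyosin, ALHF replicate 1 was also above replicate 2, as for 16.1% of genes. Because the genes were chosen on this pattern, nothing is read from these counts. ALHF stood at least 8-fold above aabys for 3 of the 4 genes, all but paramyosin, and for 5.17% of all genes. It stood at least 8-fold above CS for all 4, and for 10.1% of all genes. Both held for the same 3 genes and for 3.94% of all genes. Larger ratios to aabys than those of the 4 genes were found for 114 genes in the case of actin ALHF_04132.g2678, 158 for ALHF_02955.g1774, 181 for ALHF_02956.g1775 and 429 for paramyosin ALHF_02771.g1633. For CS these numbers were 109, 154, 250 and 375 in the same order of genes.

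Ratios between genes within a library need no scaling between libraries. The leading heavy chain outnumbered the other per length by 2.505 and 2.588 in the ALHF libraries, against 2.064 in aabys and 0.987 in CS. The heavy chain pair had 1.41 and 1.46 transcripts per transcript of ALHF_04132.g2678 in ALHF, against 2.60 in aabys and 3.58 in CS. Relative to paramyosin, the pair stood at 5.19 and 3.32 in ALHF, against 1.53 in aabys and 1.52 in CS. The strains thus differed in the balance of the genes as well as in their level, and for the ratio of actin to paramyosin the highest library exceeded the lowest 8.66-fold. For that ratio the values were 3.68 and 2.27 in ALHF, against 0.589 in aabys and 0.425 in CS. With the 6 actin contigs described below summed, the ratio was 9.63 and 7.59 in ALHF, against 3.61 in aabys and 3.67 in CS. The highest library then exceeded the lowest only 2.67-fold.

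Some of these ratios depend on how fragments were divided between contigs of the same annotation. Contigs of this kind whose numbers follow each other may be variants of 1 gene, and RSEM divides fragments that fit several of them. Of the transcripts of the heavy chain pair, ALHF_02955.g1774 held 71.5% and 72.1% in ALHF, 67.4% in aabys and 49.7% in CS. Summed over the pair, the level was 92067 and 59691 CPM in ALHF, against 4855 in aabys and 1870 in CS, which gives log2 ratios of 3.97 for aabys and 5.34 for CS. The sum removes the uneven division, and its log2 ratio to CS lies between those of ALHF_02955.g1774 and ALHF_02956.g1775 on their own, 5.88 and 4.51.

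The division was more uneven for actin. Besides ALHF_04132.g2678, 5 contigs of 1131 nt with the actin domain were found in the study's list of genes higher in ALHF, so actin contigs that were not higher in ALHF may be missing from the 6 used here. ALHF_04131.g2677, ALHF_04132.g2678 and ALHF_04133.g2679 follow each other, and among these 3 contigs ALHF_04132.g2678 held 58.98% and 41.86% of transcripts in ALHF, against 25.2% in aabys and 15.8% in CS. Its neighbour ALHF_04133.g2679 showed the opposite order, with 13.1% and 16.0% in ALHF, against 73.4% in aabys and 76.8% in CS. The other neighbour, ALHF_04131.g2677, had 49486 and 37833 counts in ALHF, against 359 in aabys and 747 in CS, and so was lower in aabys than in CS, unlike the 4 genes. A further pair, ALHF_11302.g6290 and ALHF_11303.g6291, was split in the same manner: the first held 68.4% and 69.3% of the pair in ALHF, against 2.90% in aabys and 12.6% in CS. Tropomyosin Tm1 and Tm2, troponin I (wupA) and stretchin (Strn-Mlck) also had a contig with a larger share of its family in both ALHF libraries than in aabys and CS. The long tropomyosin contig ALHF_02518.g1468, for one, held 18.4% and 12.0% of Tm1 transcripts in ALHF, against 0.612% in aabys and 0.525% in CS. Likewise, ALHF_00522.g289 held 74.89% and 80.55% of transcripts of the myosin light chain Mlc1 in ALHF, against 61.68% in aabys and 53.11% in CS. Since the contigs were built from ALHF reads, the strain and how well its reads fit these contigs cannot be told apart.

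**Figure D2:**
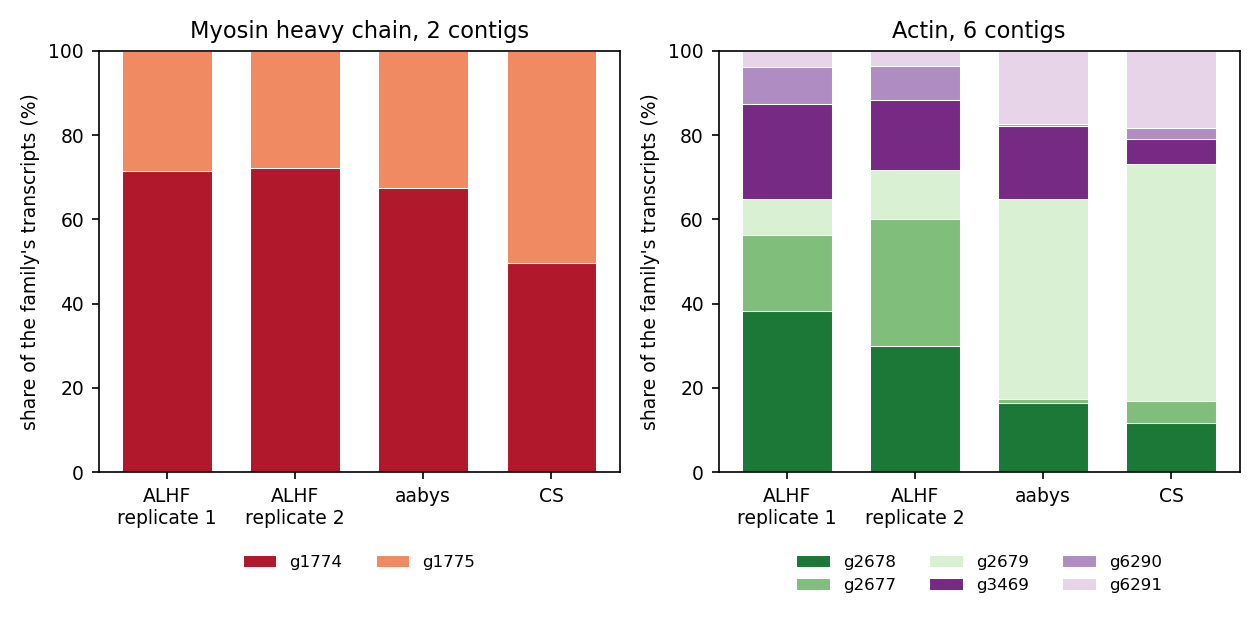
Share of each contig in the transcripts of its family, in percent, for the 2 myosin heavy chain contigs (left) and the 6 actin contigs (right) in each library. Actin ALHF_04132.g2678 holds 38.2% and 30.0% of the 6 contigs in ALHF, 16.3% in aabys and 11.6% in CS, while ALHF_04133.g2679 holds 8.46% and 11.5% in ALHF, 47.6% in aabys and 56.3% in CS.

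The 6 actin contigs were next summed and set against the heavy chain pair. As 5 of them were listed by the study for a higher level in ALHF on these libraries, the sum is a description of these contigs and not of all actin. The 6 actin contigs had 273748 and 125393 counts in ALHF, against 37685 in aabys and 13863 in CS, and their CPM ratios were 13.4-fold to aabys (log2 3.75) and 34.1-fold to CS (log2 5.09). These ratios are smaller than those of ALHF_04132.g2678 alone, 28.4-fold and 102-fold. Per transcript of the heavy chain pair there were 1.86 and 2.29 actin transcripts in ALHF, 2.36 in aabys and 2.41 in CS, so that the highest library exceeded the lowest 1.30-fold. The same quotient was 2.54-fold when ALHF_04132.g2678 stood for actin. Paramyosin ALHF_02771.g1633 did not keep such a proportion: it had 0.193 and 0.301 transcripts per heavy chain transcript in ALHF, against 0.654 in aabys and 0.657 in CS, a 3.41-fold span.

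The proportions of further muscle genes to the heavy chain pair varied more between the libraries than that of these 6 actin contigs. The myosin alkali light chain Mlc1, which binds the neck of the heavy chain, had 1.08 and 1.5 transcripts per heavy chain transcript in ALHF, against 1.93 in aabys and 1.53 in CS. Troponin I (wupA, 4 contigs), the inhibitory subunit of troponin, spanned 1.55-fold, with 0.553 and 0.733 in ALHF, against 0.856 in aabys and 0.582 in CS. Tropomyosin Tm1 spanned 1.95-fold and tropomyosin Tm2 2.21-fold. Projectin (bt), a giant elastic protein that links the thick filament to the Z-disc, spanned 4.67-fold, with 0.0134 and 0.0119 in ALHF, against 0.0557 in aabys and 0.0499 in CS. Arginine kinase (Argk), which buffers ATP in muscle, was the most uneven at 11.2-fold, and there the ALHF libraries themselves stood far apart, at 0.184 and 0.753, against 1.24 in aabys and 2.06 in CS.

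**Figure D3:**
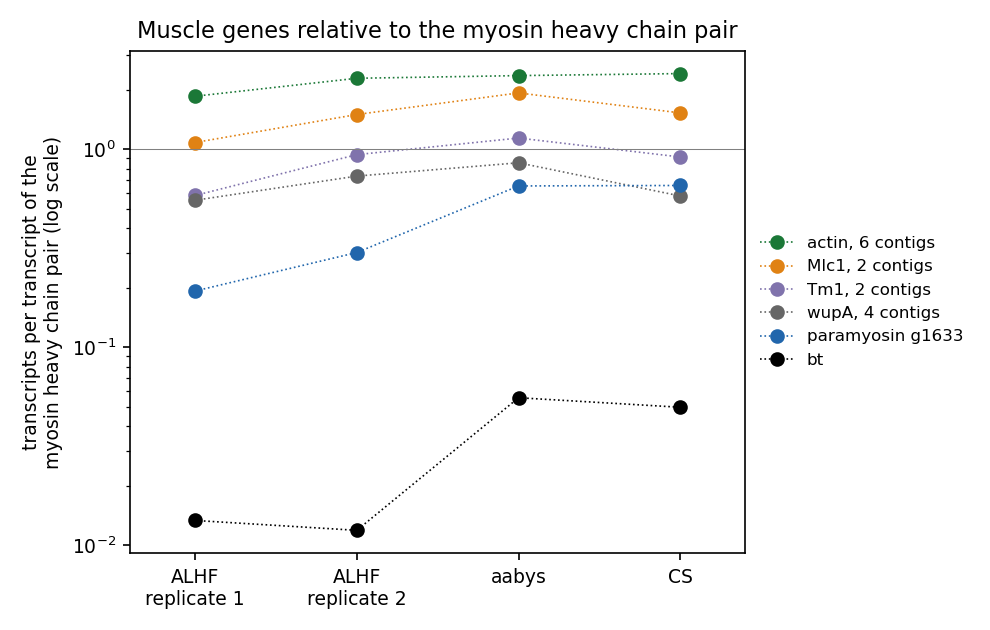
Transcripts of actin contigs and of muscle genes per transcript of the myosin heavy chain pair (ALHF_02955.g1774 and ALHF_02956.g1775), per coding length, in each library. The axis is a log axis, and contigs of 1 gene are summed. The 6 actin contigs stay between 1.86 and 2.41, whereas paramyosin ALHF_02771.g1633 is at 0.193 and 0.301 in ALHF and at 0.654 and 0.657 in aabys and CS.

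Whether other muscle genes shared the order of the 4 genes was examined in 21 contigs outside the 4. They came from the part of the annotation that was read, and include 2 contigs of energy and calcium buffering, Argk and Scp1. Several belong to 1 gene: wupA had 4 contigs, and Mlc1, Tm1, Tm2, Strn-Mlck and Zasp52 had 2 each. Each contig counts as 1 gene of the list below, although contigs of 1 gene are not independent. With edgeR's quasi-likelihood test and Benjamini-Hochberg adjustment over the 6070 genes, 0 of the 21 passed an adjusted p of 0.05 against aabys and 0 against CS, and neither did any other gene (0% of genes tested in both comparisons). The smallest adjusted p in the list was 0.107 for aabys and 0.0629 for CS, each also the smallest of all genes. Unadjusted p-values under 0.05 with a higher level in ALHF were found for 18 of 21 genes against aabys, where 11.3% of all genes had one, and for 18 of 21 against CS, where 24.3% of all genes had one. No gene of the list was lower in ALHF at that level. The Wald test of DESeq2 called 18 of 21 against each strain, beside 8.09% of all genes for aabys and 22.1% for CS. The quasi-likelihood test called, once TMM gave way to the size factors of DESeq2, 3 of 21 for aabys (0.478% of all genes) and 18 of 21 for CS (10.6% of all genes), and limma called 0 of 21 (0% of all genes) and 5 of 21 (0.280% of all genes). The spread in all of these tests came from the ALHF pair, which leaves 1 residual degree of freedom, and CS and aabys were taken to vary as ALHF did.

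In levels, both ALHF libraries stood above aabys and CS for 19 of the 21 contigs. The same held for 34.0% of all genes tested and 29.0% of those whose mean count reached 1000. In all 19 aabys was also above CS, as in 1711 of the 2061 genes (83%) with both ALHF libraries above. The median log2 ratio over the list was 2.73 to aabys and 4.57 to CS, against -0.02 and 0.10 over all genes. All 3 thick filament contigs, 10 of 11 thin filament contigs, 4 of 5 of the Z-disc and elastic filaments and both contigs of energy and calcium buffering had this order. Among the largest ratios was that of the tropomyosin contig ALHF_02518.g1468, with 2728 and 1846 CPM in ALHF, against 9.32 in aabys and 2.46 in CS. The troponin I contig ALHF_01627.g905 had 1026 and 865 counts in ALHF, against 48 in aabys and 0 in CS. Against the 3 counts that a library with none still allows, its ALHF level was at least 811-fold higher than that of CS. This contig held only 1.82% and 3.12% of wupA transcripts in ALHF. Summed over the contigs of each gene, the ratio to CS was 46.4-fold for wupA and 36.2-fold for Tm1. The ratios to aabys were then 11.8-fold and 11.2-fold.

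The exceptions were tropomodulin and a stretchin contig. Tropomodulin (tmod), which caps the pointed ends of thin filaments, stood at 36.7 and 33.6 CPM in ALHF, against 34.1 in aabys and 51.1 in CS (log2 ratios of 0.04 ± 0.44 and -0.54 ± 0.43, SE). Stretchin (Strn-Mlck) was split over 2 contigs with different orders: ALHF_00306.g151 had 282 and 222 CPM in ALHF, against 209.8 in aabys and 246 in CS, while ALHF_00307.g152 had 256 and 338 in ALHF, against 22.3 in aabys and 9.09 in CS. With the list added, the 4 genes and the 21 contigs made up 12.2% and 9.79% of all counts in ALHF, 1.29% in aabys and 0.587% in CS.

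**Figure D4:**
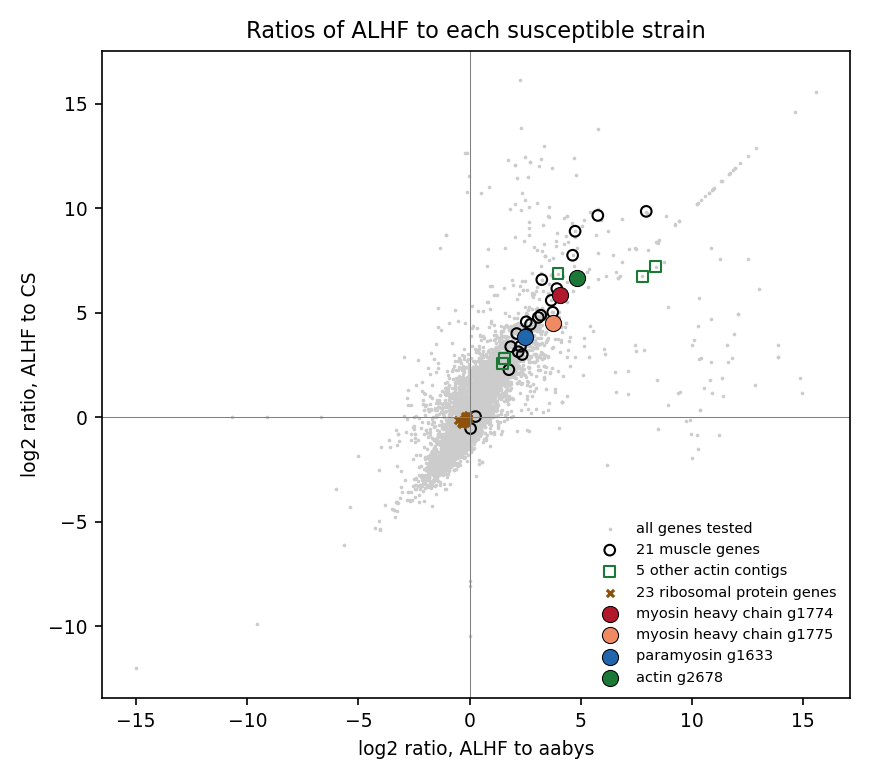
Log2 ratio of ALHF to aabys (horizontal) and of ALHF to CS (vertical), both of which share the ALHF libraries; grey points are the 6070 genes tested, as fitted by edgeR, and the marked genes are ratios of TMM-normalized CPM. The 4 genes lie at 2.49 to 4.83 for aabys and at 3.86 to 6.67 for CS, among the 21 muscle genes, whose medians are 2.73 and 4.57, and away from the 23 ribosomal protein genes near 0.

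Actin contigs, actin-binding genes and other myosins were set beside the 4 genes. The 5 actin contigs besides ALHF_04132.g2678 all stood higher in both ALHF libraries than in aabys and CS, with log2 ratios of 1.47 to 8.37 for aabys and 2.57 to 7.21 for CS; they came from a list that the study drew up as higher in ALHF on these same libraries, and are not independent evidence of a direction. Next came 6 actin-related and actin-binding genes outside the muscle list, among them profilin (chic) and twinfilin (twf), which bind actin monomers. Of these 6 genes, none was higher in both ALHF libraries (34.0% of all genes) and 3 were lower in both (35.0% of all genes). Their summed level was 284 and 311 CPM in ALHF, against 365 in aabys and 428 in CS. Of 9 other myosin contigs, 5 were higher in both ALHF libraries (34.0% of all genes) and 3 were lower in both (35.0% of all genes). In 3 of the 9 the full order of the 4 genes, with aabys also above CS, was found, a share near the 28.2% of all genes. All 3 were contigs of Mhcl, at 2.44- to 6.16-fold aabys and 6.81- to 27.0-fold CS. A further Mhcl contig, ALHF_02345.g1359, was lower in both ALHF libraries. The unconventional myosin VI (jar), which moves towards the pointed ends of actin filaments, was among the lower ones, at 164 and 146 CPM in ALHF, against 208 in aabys and 224 in CS.

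Genes with the pattern most like each of the 4 were sought among 2044 genes with a mean count of at least 1000, by the root mean square difference of log2 CPM after each gene was centred over the 4 libraries. This likeness is a description over 4 libraries that differ in depth and strain. For ALHF_02955.g1774 the nearest was the sarcoplasmic calcium-binding protein Scp1 (ALHF_02226.g1282), at a difference of 0.220, followed by a mitochondrial carrier (ALHF_05228.g3580, 0.25) and the light chain Mlc1 (ALHF_00522.g289, 0.252). The next were ALHF_05225.g3577, with EF-hand domains, at 0.267, and ALHF_05185.g3545, with immunoglobulin domains, at 0.371. Its partner ALHF_02956.g1775 came only in place 18, at 0.562.

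For ALHF_02956.g1775 the nearest was ALHF_03303.g2032, listed as a sodium/calcium exchanger, at 0.207. Next came ALHF_05042.g3431 and ALHF_05043.g3432, a pair with spectrin repeats and the same count in every library, both at 0.284. The others were ALHF_10977.g6098, with thrombospondin type 3 repeats, at 0.315 and ALHF_03932.g2516, listed as a homogentisate 1,2-dioxygenase, at 0.328. Paramyosin ALHF_02771.g1633 had the closest neighbours of the 4, ALHF_10802.g6019 at 0.093 and ALHF_04535.g3018 at 0.104, followed by ALHF_04487.g2975, with immunoglobulin domains, at 0.136. Then came the citrate synthase ALHF_03396.g2102, an enzyme of the mitochondrial citric acid cycle, at 0.173, and ALHF_01351.g737, a C-type lectin, at 0.175. No heavy chain or actin gene was among them, and the difference between paramyosin and actin ALHF_04132.g2678 was 1.30. For the actin gene the nearest was a glutathione S-transferase, ALHF_03123.g1902, a class of conjugating enzymes, at 0.271, then ALHF_05185.g3545 at 0.289, heavy chain ALHF_02955.g1774 at 0.388, Scp1 at 0.403 and actin ALHF_05088.g3469 at 0.417.

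Markers of other tissues differed between the strains as well, and their part in the muscle values was not tested. Of 6 contigs of ovary and germ line genes named after Drosophila melanogaster, 5 stood lower in both ALHF libraries than in aabys and CS. The share of all genes that did so was 35.0%. Several of the 5 were contigs of tud, and contigs of 1 gene are not independent. The exception, grk, had 19.8 and 62.8 CPM in ALHF, against 36.9 in aabys and 25.0 in CS. The summed level of the 6 contigs was 584 and 874 CPM in ALHF, against 2790 in aabys and 3542 in CS, and none was at 0. The yolk protein receptor gene yl had 20.5 and 223 CPM in ALHF, against 1037 in aabys and 1217 in CS, and so differed between the ALHF pools by more than any of the 4 genes. The 3 eye genes were higher in both ALHF libraries, as were 34.0% of all genes, summing to 2818 and 2998 CPM in ALHF, against 1435 in aabys and 876 in CS. Gut and neuron markers, 2 each, had no common order of ALHF and aabys. In each list 1 of the 2 was higher in both ALHF libraries than in aabys and CS. CS was the lowest library for every gut and neuron marker. Every gut, neuron and eye marker thus had aabys above CS, as did 49.5% of all genes. The 23 ribosomal protein genes, which every cell uses, summed to 35630 and 43647 CPM in ALHF, against 46433 in aabys and 43879 in CS. Scaled to that sum in place of TMM, the summed log2 ratio of the 4 genes was 4.10 to aabys and 5.41 to CS.

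**Figure D5:**
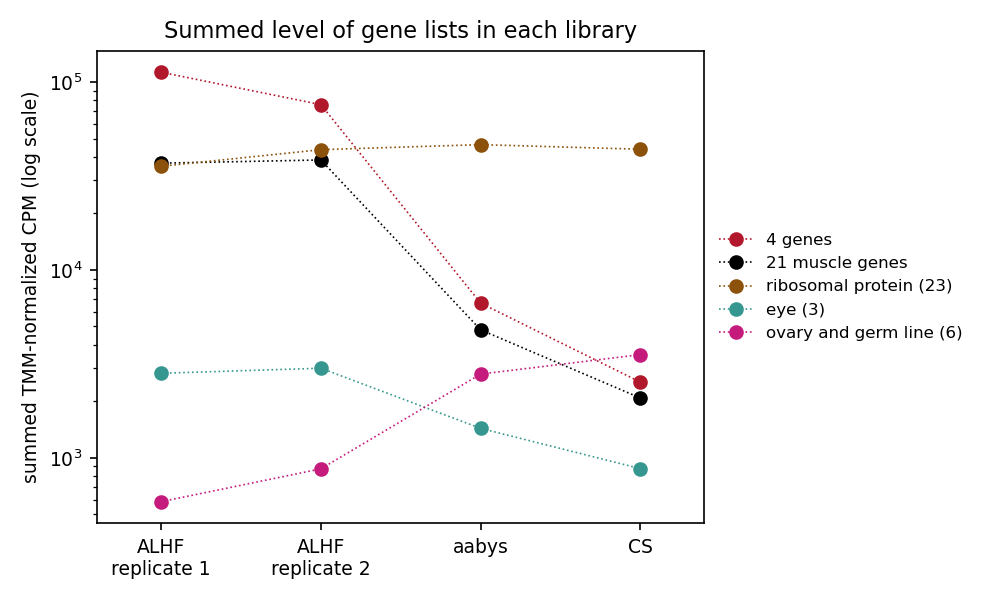
Summed TMM-normalized CPM of the 4 genes, of 21 other muscle genes, and of ribosomal protein, eye, and ovary and germ line genes in each library, on a log axis; numbers in brackets count genes. The 4 genes and the muscle list are highest in ALHF, the ovary and germ line list is lowest there (584 and 874, against 2790 in aabys and 3542 in CS), and the ribosomal protein genes lie between 35630 and 46433.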

How the data were processed

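Whole-fly RNA of 4 libraries was sequenced as read pairs. According to the methods, Trimmomatic trimmed the reads, Trinity and CAP3 built contigs from those of ALHF, Augustus found their coding regions, and expression was estimated by RSEM (version not stated). The authors deposited values headed FPKM, but the deposited values behave like estimated counts: whole numbers whose product with length in kilobases sums to at least 12122668 per library, far over the sum that FPKM allows. They were used as rounded counts, and each level rests on this reading.

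The 4 genes and all lists were chosen with earlier results of these data known. Counts were fitted with edgeR 4.0.16 in R 4.3.3 (filterByExpr, which kept 6070 of 6159 genes, TMM, glmQLFit and glmQLFTest, strain as group), with a Benjamini-Hochberg threshold of 0.05 over all genes kept. The fit was tested on simulated data with a smaller spread between libraries than was estimated here, so that check does not cover the spread of these data. A ratio is that of the mean ALHF CPM to the single library of a strain. TPM and summaries were made in Python 3.11.15 with pandas 2.3.3. Only ALHF was replicated, so p-values rest on the spread of that pair.

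Annotation was read by gene identifier from the part available, 1689 genes, whose lengths all matched the deposited table, and from the study's list of genes higher in ALHF. Genes named are the 4, the members of their contig families and of the muscle and marker lists with high counts or that break a list's order, and the 5 nearest in pattern to each; tmod, jar and chic were named after their values were seen. Alternatives were DESeq2 1.42.0, limma 3.58.1 (pseudocount of 1 CPM), other scalings, no filter, a threshold of 0.1, summed contigs and leaving out each ALHF library; scaling to ribosomal protein genes was added after seeing the data. The qRT-PCR and the autosomal lines were not analysed here.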

Additional observations from a re-analysis of the deposited data

How the results depend on the processing

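The summed log2 ratio of the 4 genes was 3.82 to aabys and 5.22 to CS. It stayed within 1 SD of the ALHF libraries (0.41) with DESeq2 size factors, TMM computed without muscle genes and, chosen after seeing the data, scaling to ribosomal protein genes (4.10 and 5.41). Library size alone gave 3.39 and 4.61, and reading the values as FPKM gave 2.51 and 4.01; relative to TMM, these scalings also shift the median of all genes, by -0.425 and -0.608 and by -1.392 and -1.295. Without ALHF replicate 1 or 2 the ratio ran between 3.51 and 4.08 for aabys and between 4.91 and 5.48 for CS. The mean share of transcripts in ALHF, 2.59%, ran between 2.08% and 3.10% without a replicate, was 2.23% with 150 nt taken off each length and 7.85% as a share of counts. All 62 alternative values for single genes were positive, but the genes were chosen with their order across the strains known. Of these, 22 moved from the main value by at least the SD of the ALHF libraries for that gene. The lowest was 1.11, for paramyosin to aabys with the values read as FPKM.

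The number of the 21 muscle contigs called depends on the test and the scaling. Against aabys it was 0 in the main analysis, 1 with library size alone, 3 with DESeq2 size factors in edgeR, 2 with aabys and CS as 1 group and 18 with DESeq2. Against CS it was 0 in the main analysis, 17 with library size alone, 18 with DESeq2 size factors, 18 at a threshold of 0.1, 2 with aabys and CS as 1 group, 18 with DESeq2 and 5 with limma. Of all 6070 genes, library size alone called 19 higher in ALHF for aabys and 507 for CS, the threshold of 0.1 called 0 and 1258, and aabys and CS as 1 group gave 43. The cause was not tested. The count of 19 contigs above both strains became 19 or 20 without a replicate. Leaving out an ALHF library left no residual degree of freedom for the tests. No paired analysis was possible because only ALHF had more than a single library. Depth limits little here: the lowest count of the 4 genes was 1603.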
